A study of Mus musculus with 19 samples.

Results

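A set of 40 genes of the cell cycle and of DNA replication was followed in the cerebral cortex of mouse fetuses whose mothers had been treated with drugs that block the thyroid, with thyroid hormone, or with both. The members were 18 genes of S phase, 17 genes of mitosis and 5 genes of the G1 phase, 40 of the 17967 genes measured. A probe set belonged to a member when the symbol deposited for it named that gene, which gave 96 probe sets, and 3 more of Cdc45 and Cdk1 were found under the older names Cdc45l and Cdc2a. These 99 of 45037 probe sets covered all 40 genes. Of them 86 had a present call in the authors' deposited table and 13 an absent call, and the probe set that stood for each gene, the brightest over all arrays, was present in 40 of 40.

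A dividing cell copies its DNA in S phase and separates the copies in mitosis. In G1 the D-type cyclins help to inactivate the retinoblastoma proteins, which frees E2F transcription factors to switch on genes for DNA replication. Mitotic genes are switched on later, through a promoter element called the cell cycle genes homology region (CHR) and through CCAAT boxes, which bind the factor NF-Y. In the fetal cortex the dividing cells are mainly radial glia and intermediate progenitors, and the neurons they give rise to have left the cycle.

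Each array held RNA from part of the cortex of 1 wild type C57BL/6 fetus, described as female from a PCR for the gene Sry, killed on gestational day 16. Dams of the control group (5 arrays) drank water with 2% sucrose from gestational day 13 and were injected with saline 12 hours before they were killed. Dams of the hypo group (5 arrays) had the same injection but drank sucrose water with 1% perchlorate and 0.025% methimazole for the 3 days, a treatment that some of the sample descriptions and the title name as propylthiouracil. Hypo+ dams (5 arrays) drank this goitrogen water and were injected, for each 100 g of body weight, with T4 at 25 µg and T3 at 2.5 µg, which was meant to bring hormone back to a physiological level. Hyper dams (4 arrays) drank sucrose water alone and received T4 at 100 µg and T3 at 10 µg for each 100 g. The authors removed 1 array. There were 20 dams, 5 per group. Nothing says how the fetuses were spread over them, so the p-values describe fetus-to-fetus spread, which may be narrower than that between litters.

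All 13 markers of cortical neurons, 12 of radial glia and 6 of intermediate progenitors that were measured had present calls, among them Tbr1 and Neurod6 of neurons, Sox2 and Pax6 of radial glia and Eomes of intermediate progenitors. The 13 markers of the ganglionic eminences, the neighbouring part of the forebrain, were present as well, and so were 5 of 6 of the choroid plexus. Array medians lay between 73.1 and 106 signal units. Against the label of female, 2 arrays, hypo+ replicate 1 and hyper replicate 4, had a signal of the Y-linked gene Ddx3y of 695.9 and 546.7, against at most 11.3 on the others. In whole tissue, fewer cells of a type and less RNA per cell cannot be told apart.

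The promoters of 2 S phase and 2 mitosis genes are given here as examples of the letters searched. Whether these letters bear on how members varied between arrays was not tested. RefSeq (GRCm38.p6) gave promoters for 32 of the 40 members. The 150 bases just before the annotated start are printed 5′ to 3′ on the strand of the gene, with matches on either strand in capitals. The letters searched were TTCCCGC or TTGGCGC or TTCGCGC or TTGCCGC for E2F, TTTGAA or TTCGAA for the CHR, and CCAAT for the CCAAT box. Neighbouring matches may overlap, as both pairs of E2F matches do in Mcm6.
Rrm1, S phase, chr7:102441545-102441694, plus strand, 1 E2F match and 2 CCAAT boxes: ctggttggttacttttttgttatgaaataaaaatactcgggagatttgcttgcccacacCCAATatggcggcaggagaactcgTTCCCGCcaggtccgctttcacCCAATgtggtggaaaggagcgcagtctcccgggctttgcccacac
Mcm6, S phase, chr1:128359706-128359855, minus strand, 4 E2F matches and 2 CCAAT boxes: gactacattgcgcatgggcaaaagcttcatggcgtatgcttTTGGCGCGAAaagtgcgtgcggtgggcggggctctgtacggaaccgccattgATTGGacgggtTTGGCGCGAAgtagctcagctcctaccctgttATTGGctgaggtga
Kif11, mitosis, chr19:37376232-37376381, plus strand, 1 CHR match and 1 CCAAT box: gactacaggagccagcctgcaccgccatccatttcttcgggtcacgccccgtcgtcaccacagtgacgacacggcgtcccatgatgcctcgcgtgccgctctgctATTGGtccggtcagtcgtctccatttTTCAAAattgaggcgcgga
Top2a, mitosis, chr11:99024190-99024339, minus strand, 3 CHR matches and 4 CCAAT boxes: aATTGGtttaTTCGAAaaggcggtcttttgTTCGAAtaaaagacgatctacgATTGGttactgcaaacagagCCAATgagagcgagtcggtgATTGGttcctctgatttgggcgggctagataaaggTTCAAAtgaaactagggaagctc

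Over the whole window of 250 bases before to 50 bases after the start, E2F letters were found in 11 of 16 S phase members (68.8%), 3 of 14 mitosis members (21.4%) and 10.9% of all 27025 genes in the promoter table. CHR letters were found in 4 of 16 S phase members (25%), 11 of 14 mitosis members (78.6%) and 21.7% of all genes. CCAAT boxes were in 11 of 16 and 13 of 14 members, and in 41.1% of all genes. Neither of the 2 G1 members in the table, Ccne1 and E2f1, had a match to any of these letters in this window. A match is a run of letters and was not shown to be a bound site.

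No member changed past the threshold in any of the 5 comparisons when each gene was represented by its brightest probe set. The threshold was an adjusted p under 0.05 from limma, with the Benjamini-Hochberg method over all genes, and changes are differences of log2(signal + 32). The members shifted by small amounts and mostly in 1 direction within a comparison. In hypo against control 14 members had a positive change and 26 a negative one, in hypo+ against control 7 and 33, in hyper against control 33 and 7, and in hypo+ against hypo 9 and 31. The 3 comparisons against control share the 5 control arrays, and both comparisons of hypo+ share its arrays. These splits are therefore not independent of one another. Of all genes, 43.2% had a positive change in hypo, 42.7% in hypo+ and 54.2% in hyper against control, and 48.2% in hypo+ against hypo. Members also varied together across the arrays, with a median Pearson r between pairs of 0.64 within S phase and 0.71 within mitosis. A split is thus not a count of genes that agree separately, here or in the splits given below.

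**Figure D1:**
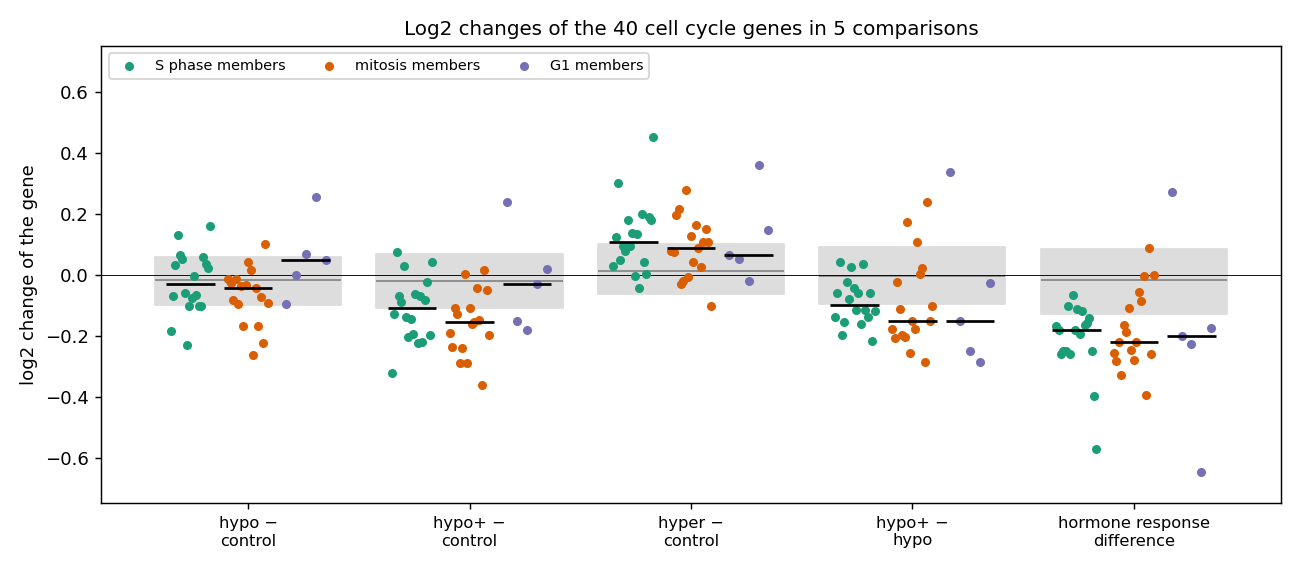
Log2 change of each of the 40 genes (dots, coloured by list) in 5 comparisons, with the median of each list as a black bar. Grey boxes span the lower to the upper quartile of all 17967 genes and the grey line is their median. The S phase and mitosis lists lie below the median of all genes in hypo+ against control and in hypo+ against hypo, and above it in hyper against control.

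Hypo+ against control asks how cortex of goitrogen-treated dams given the restoring hormone dose differs from that of dams given sucrose water and saline. This comparison had the members of smallest adjusted p among the 5 comparisons. The median change was −0.11 for S phase members and −0.16 for mitosis members, against −0.02 for all genes, and 15 of 18 and 15 of 17 were negative. Of the 40 members 0 passed the adjusted threshold, as did 0.551% of all genes, and 7 had an unadjusted p under 0.05, all of them negative, against 13.7% of all genes in either direction and 9.36% negative. The split of 7 positive and 33 negative members became 15 and 25 without control replicate 1, 5 and 35 when the arrays of Y-linked signal were left out, and 1 and 39 after median centring of the arrays, a scaling that moved the median of all genes to −0.12.

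Cdc45, a subunit of the replicative helicase, came closest among S phase members. Its signals were 319.7, 205.6, 252.3, 279.4 and 266.8 in control and 219.8, 219.4, 211.7, 172 and 196.7 in hypo+. The hypo+ arrays lay below 4 of the 5 control arrays, and control replicate 2 lay among them. The change was −0.32 ± 0.09 (SE) with adjusted p = 0.103. It passed with arrays weighted by their quality (−0.35, adjusted p = 0.0465) and without control replicate 2 (−0.40, adjusted p = 0.0326). A second, dimmer probe set of Cdc45 had a change of the opposite sign, 0.27 ± 0.08 (SE) (adjusted p = 0.0889 over all probe sets).

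Pcna, the sliding clamp of the replication fork, read 9187.6, 7456.1, 7754.1, 7967 and 8405.1 in control and 7747.4, 7550.7, 7200.2, 6025.7 and 6399.8 in hypo+, a change of −0.23 ± 0.08 (SE) with adjusted p = 0.227. Prim1, the primase subunit that makes RNA primers, read 1545, 1113.6, 1199.8, 1304.4 and 1378.9 in control and 1256.8, 1218.8, 1127.6, 1044.2 and 943.3 in hypo+, a change of −0.22 ± 0.09 (SE) (adjusted p = 0.261). In both genes hypo+ replicates 4 and 5 were the lowest of the 10 arrays. Of the 5 hypo+ arrays, 3 lay below every control in Pcna and 2 did in Prim1, and the rest overlapped.

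Among mitosis members Kif20a, a kinesin of cytokinesis, had the most negative change. Its signals were 636.2, 291.9, 359.7, 381 and 397.5 in control and 370.8, 312.7, 319.5, 278.2 and 253.1 in hypo+, which gave −0.36 ± 0.15 (SE) with adjusted p = 0.283. Control replicate 1 was far above the other controls, and the groups overlapped. Bub1b, a kinase of the spindle checkpoint, read 973.3, 672.1, 640.4, 776.8 and 685.1 in control and 588.4, 675, 686.5, 510.6 and 556.6 in hypo+, a change of −0.29 ± 0.10 (SE) (adjusted p = 0.191). Ccnb2, a mitotic cyclin, read 1361.7, 929.4, 921.8, 1169 and 1017.1 and 994.2, 980.7, 889.4, 676.2 and 838.7, a change of −0.29 ± 0.12 (SE) (adjusted p = 0.304). Neither gene separated the groups, and hypo+ replicate 4 was the lowest array of both.

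The G1 cyclin Ccnd1, which couples growth signals to the start of the cycle, had the opposite sign. It read 814, 710.7, 892.5, 914.9 and 959.5 in control and 916, 1136.3, 1240.2, 827.3 and 995.8 in hypo+, a change of 0.24 ± 0.13 (SE) with adjusted p = 0.432. The proliferation marker Mki67 read 2923.2, 2104.4, 1881.3, 2364.7 and 1978.4 in control and 2297.3, 2680.9, 2337.1, 1940 and 2040.1 in hypo+, with no shift of the mean, 0.01 ± 0.12 (SE) (adjusted p = 0.977). Top2a, the topoisomerase that untangles sister chromatids, read 3360, 2621.3, 2315.5, 2977.5 and 2389.2 and 2515.6, 2868.2, 2369.6, 2012.8 and 2112.9, a change of −0.20 ± 0.12 (SE) (adjusted p = 0.502). All of these ranges overlapped.

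Taken 1 probe set at a time, 5 of the 99 member probe sets fell past the threshold in hypo+ against control and 0 rose, with limma and adjustment over all 45037 probe sets, against 1.9% of all probe sets that fell and 3.11% that passed in either direction. In hypo against control, hyper against control and the difference of the hormone responses, described below, 0 of 99 passed, against 0%, 0.175% and 0.0133% of all probe sets. The 5 that fell belonged to Rrm1 and Rrm2, the large and small subunit of the ribonucleotide reductase that makes deoxynucleotides, to Mcm7, part of the replicative helicase, to Ccnb1, the cyclin partner of the mitotic kinase Cdk1, and to Kif11, the kinesin that pushes spindle poles apart. None of the 5 was the brightest probe set of its gene. Mcm7, Rrm1 and Rrm2 are named because their probe sets passed, a choice made after their values were seen.

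Rrm1 (probe set 1448127_at) read 2532.1, 1498.4, 1941.2, 1739.8 and 2125.1 in control, 2311.5, 1705.8, 1792.7, 1537.3 and 1744 in hypo, 1645.7, 1340.7, 1267, 1066.8 and 1161.6 in hypo+ and 1488.5, 1589.3, 1464.6 and 1641.6 in hyper. Its change in hypo+ against control was −0.58 ± 0.13 (SE) (adjusted p = 0.0243), and the highest hypo+ array overlapped the lowest control. The brighter probe set of the gene had −0.08. Rrm2 (1416120_at) read 2193.6, 1512.3, 1731.3, 2015.8 and 2156.6 in control and 1589.9, 1556.4, 1343, 1062.4 and 1208.7 in hypo+, and fell by 0.50 (SE 0.12, adjusted p = 0.0338), although 2 hypo+ arrays lay above the lowest control. The other probe sets of Rrm2 had −0.02 and −0.19.

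Mcm7 (1416030_a_at) separated the groups completely, with 2825.5, 2547.3, 2510.5, 2652.9 and 2696.8 in control and 2300.4, 2008.4, 2230.3, 1774.5 and 2059.5 in hypo+. Its change was −0.35 ± 0.08 (SE) with adjusted p = 0.0301, and the other 3 probe sets of the gene had −0.21, −0.06 and −0.15. Ccnb1 (1416076_at) read 1503.2, 1112.3, 1317.2, 1117.9 and 1097.7 in control and 955.8, 1098.4, 841.5, 620.3 and 767.7 in hypo+, a change of −0.52 with adjusted p = 0.0436. Its highest hypo+ array, 1098.4, all but equalled the lowest control, 1097.7. This probe set also carries the symbols of other loci, and the brightest one of Ccnb1, 1448205_at, had 0.00. Kif11 (1452315_at) read 662.8, 376.2, 511.4, 510.6 and 598.3 in control and 448.5, 345.5, 386.3, 295.7 and 264.8 in hypo+, a change of −0.57 with adjusted p = 0.0285. Its groups overlapped in 3 arrays, and the other 2 probe sets of the gene had −0.15 and −0.00.

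**Figure D2:**
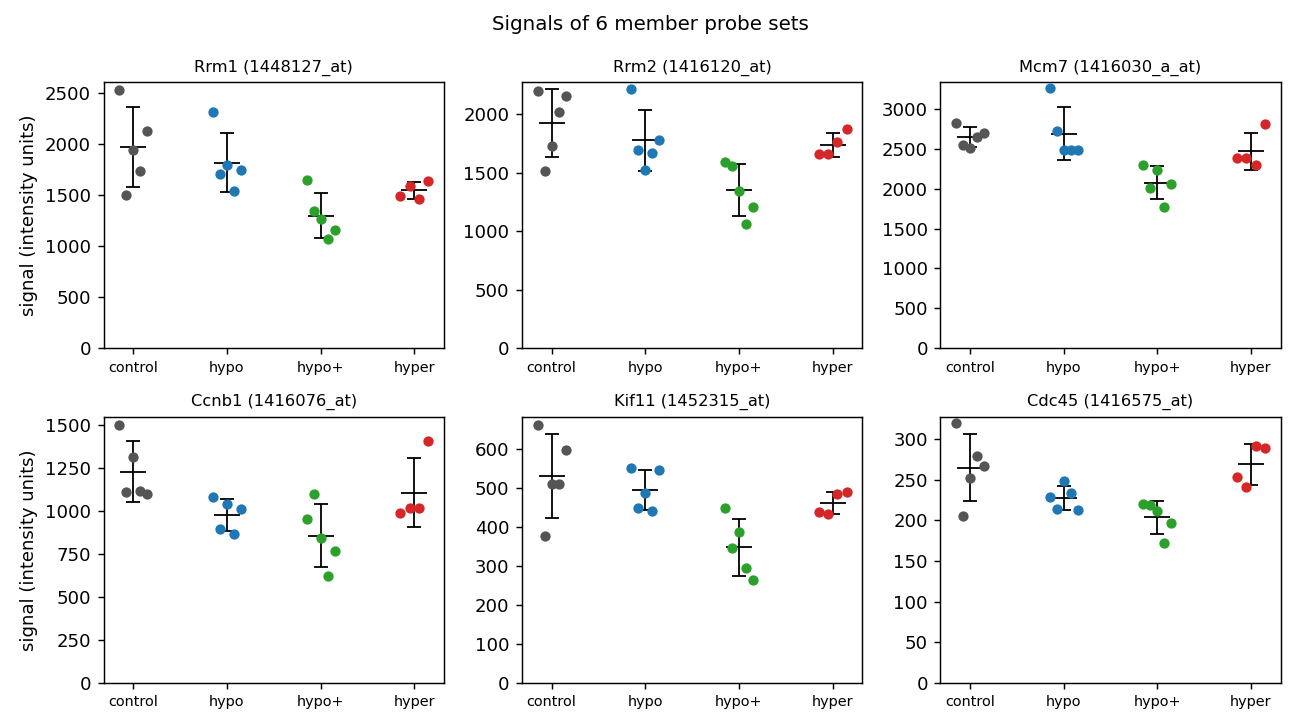
Signal (intensity units, axis from 0) of 6 member probe sets on each of the 19 arrays by group, with mean and SD. The hypo+ group has the lowest mean in all 6, the falls of Rrm1, Rrm2, Mcm7, Ccnb1 and Kif11 against control passed the threshold, and only in Mcm7 do all 5 lie below all 5 controls. The Cdc45 probe set missed the threshold.

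The number of these calls was not stable when single arrays were left out. The count was 0 without control replicate 1, 3 or 5 or hypo+ replicate 4 or 5. It was 2 without hypo+ replicate 3, 3 without hypo+ replicate 2 and 7 without control replicate 2. It stayed 5 when the arrays of Y-linked signal were left out and was 11 after median centring. Calls over all genes fell as well, from 99 with every array. They were 44, 0 and 16 without control replicate 1, 3 or 5, and 15 and 12 without hypo+ replicate 4 or 5. The authors' deposited table, which used permutation, lists the same 5 probe sets and the one of Cdc45 as lower at an adjusted p under 0.05, against 2.45% of all probe sets lower and 4.27% in either direction, with signed folds of −1.51 for Rrm1, −1.53 for Kif11, −1.42 for Rrm2, −1.45 for Ccnb1, −1.28 for Mcm7 and −1.29 for Cdc45. It lists 0 members in hypo against control and in hyper against control, against 0.111% and 0.551% of all probe sets.

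Probe sets of 1 gene often disagreed. Of the 27 members with at least 2 present probe sets, 11 had changes of both signs in hypo+ against control, and the widest spread within a gene was 0.62, in Ccnd2, a D-type cyclin. The arrays cannot say which probe set measures the transcripts best.

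**Figure D3:**
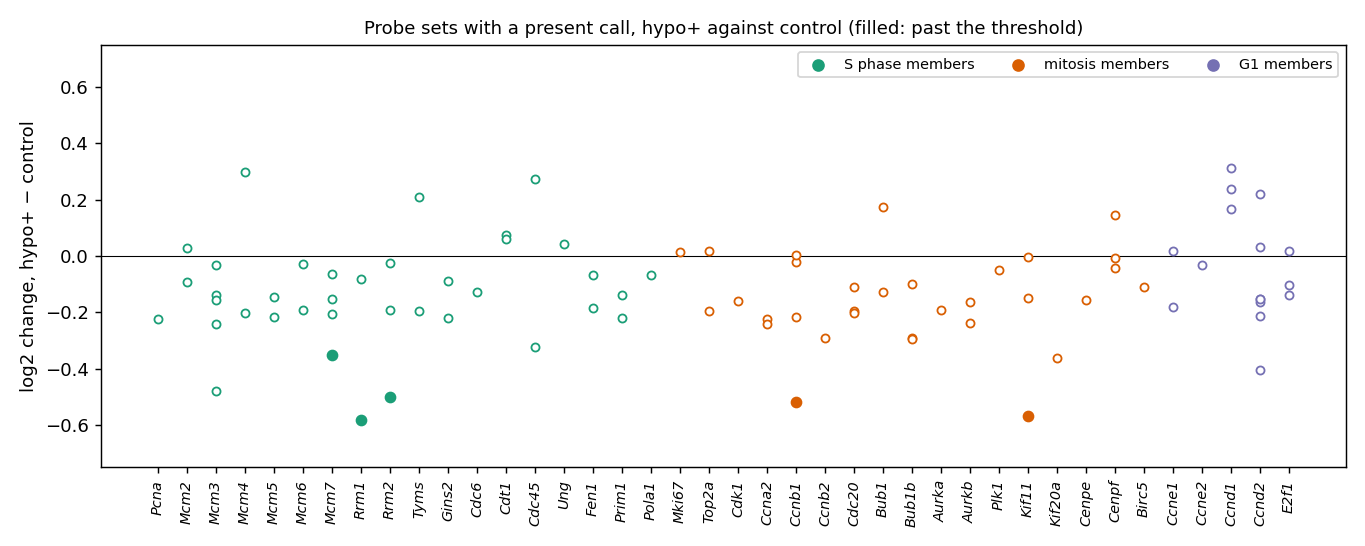
Log2 change in hypo+ against control of every member probe set with a present call, by gene, with those past the threshold filled. The 5 filled points, of Mcm7, Rrm1, Rrm2, Ccnb1 and Kif11, lie between −0.35 and −0.58, below the other probe sets of their genes.

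Hypo against control, which asks what 3 days of goitrogen did without added hormone, had S phase and mitosis medians nearest to 0. S phase members had a median change of −0.03, mitosis members −0.04 and all genes −0.02. No member and no gene passed (0%), and 1 member, against 9.87% of all genes, had an unadjusted p under 0.05. The split of 14 positive and 26 negative became 28 and 12 without control replicate 1 and 22 and 18 with quantile normalization. All 40 members had a 95% confidence interval of the change that lay inside −1 to 1, and 36 inside −0.5 to 0.5, so changes beyond these bounds lie outside the intervals while smaller ones are not resolved.

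The member with an unadjusted p under 0.05 was Cenpe, a kinesin of the kinetochore. It read 766.6, 475.9, 515.2, 579.8 and 520.6 in control and 452.8, 479.5, 470.2, 449.3 and 470.1 in hypo, a change of −0.26 ± 0.12 (SE) with adjusted p = 0.461. Of the 5 hypo arrays 4 lay below every control, and hypo replicate 2 did not. Mki67 read 2045.9, 1854.1, 1820.9, 1651.3 and 2148.2 in hypo, a change of −0.23 ± 0.12 (SE) (adjusted p = 0.545), and the helicase subunit Mcm4 read 1445.4, 887.1, 913.2, 1172.5 and 1078.2 in control and 1075, 884.6, 831.5, 875.7 and 939.3 in hypo, −0.23 ± 0.12 (SE) (adjusted p = 0.575). In both genes the groups overlapped and control replicate 1 was the highest array. The other members with the widest changes were Cdc45 (−0.18), Ung, which removes uracil from DNA (0.16), Kif11 (−0.17) and Ccne2, a cyclin that drives entry into S phase (0.25). Pcna, Top2a and Ccnd1 had −0.07, −0.09 and −0.10.

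Hyper against control, which asks what the high hormone dose did in cortex without goitrogen, had list medians above 0. The median change was 0.11 for S phase and 0.09 for mitosis members, against 0.01 for all genes, and 16 of 18 and 13 of 17 were positive. None passed, against 0.0445% of all genes, and 1 had an unadjusted p under 0.05, against 8.03%. The split of 33 positive and 7 negative became 19 and 21 after median centring, under which the medians were 0.01 for S phase, −0.01 for mitosis and −0.09 for all genes. It was 39 and 1 without control replicate 1 and 30 and 10 when the arrays of Y-linked signal were left out.

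Cdt1, which licenses replication origins, was the member with an unadjusted p under 0.05 and the only member whose groups did not overlap at its brightest probe set, in any of the 4 comparisons of 2 groups. Of all genes 1.5% had every hyper array above every control, and groups did not overlap in either direction in 2.87% there, 1.66% in hypo against control, 3.13% in hypo+ against control and 3.78% in hypo+ against hypo. It read 1071.5, 826, 744.4, 1062.6 and 851.3 in control and 1086.1, 1083.2, 1169.9 and 1139.5 in hyper, a change of 0.30 ± 0.14 (SE) with adjusted p = 0.604. The lowest hyper array exceeded the highest control by little. Ung read 365.9, 177.2, 151.7, 327.9 and 256.2 in control and 403.3, 307.3, 383.7 and 296.9 in hyper, 0.45 ± 0.22 (SE) (adjusted p = 0.646). Pola1, the catalytic subunit of the polymerase that starts new strands, read 481.5, 303, 358.5, 404.3 and 368.8 and 425.8, 452.1, 426.3 and 455, 0.20 ± 0.12 (SE) (adjusted p = 0.718). Control replicates 1 and 4 lay within the hyper range of Ung. In Pola1 control replicate 1 lay above all hyper arrays and the other 4 below them.

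Mitosis members with the widest changes were Ccnb1, Bub1 and Birc5. Ccnb1 at its brightest probe set read 2127.3, 967.2, 1217.1, 1250.1 and 1632.7 in control and 1908.4, 1630.6, 1526 and 1716.6 in hyper, 0.28 ± 0.22 (SE) (adjusted p = 0.782). Bub1, a kinase of the spindle checkpoint, read 1039.4, 546.1, 697.1, 779.4 and 772.6 and 926.6, 838.5, 839.3 and 905.7, 0.21 ± 0.13 (SE) (adjusted p = 0.718). In both, control replicate 1 lay above all hyper arrays. In Bub1 the other 4 controls lay below them, and in Ccnb1 3 did. Birc5, a subunit of the chromosomal passenger complex, had 0.20, Ccne2 0.36, Mki67 0.15, Ccnd1 0.06, Pcna −0.04 and Top2a −0.10.

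Hypo+ against hypo, which compares goitrogen-treated cortex with and without the hormone injection, gave a median of −0.10 for S phase, −0.15 for mitosis and −0.01 for all genes. None of the 40 genes passed, against 1.58% of all genes, and 3 had an unadjusted p under 0.05, against 15.4%. Those were Ccnd1, with a positive change, and Fen1 and Ccne1, with negative ones. The split of 9 positive and 31 negative was 16 and 24 without hypo replicate 1 and 5 and 35 when the arrays of Y-linked signal were left out. It was 4 and 36 after median centring, which moved the median of all genes from −0.01 to −0.08.

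Ccnd1 read 1039.2, 807.4, 559.1, 818.7 and 827.9 in hypo and 916, 1136.3, 1240.2, 827.3 and 995.8 in hypo+, a change of 0.34 ± 0.13 (SE) with adjusted p = 0.2. Its other 2 probe sets had 0.42 and 0.23, and the groups overlapped. Fen1, the nuclease that trims Okazaki fragments, read 2147.7, 1683.8, 1692.2, 1744 and 1684.4 in hypo and 1553.3, 1543.9, 1596.9, 1312.3 and 1770 in hypo+, −0.20 ± 0.08 (SE) (adjusted p = 0.21). Hypo replicate 1 was its highest array and hypo+ replicate 4 its lowest. Mki67 had 0.24 ± 0.12 (SE) (adjusted p = 0.33), and the mitosis members Kif20a and Ccnb2 had −0.29 and −0.26. Tyms, which makes thymidylate, read 709.2, 617.1, 741.4, 657 and 588.8 in hypo and 618, 640.4, 585, 438.4 and 557.9 in hypo+, a change of −0.22, at a probe set that it shares with a pseudogene. Its sign turned to 0.35 (adjusted p = 0.386) with the brightest probe set that carries the symbol Tyms alone, which was dim (mean signal 77.6). Pcna had −0.16 and Top2a −0.10.

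Taken singly, 2 of 99 member probe sets fell and 0 rose, against 1.13% of all probe sets that fell and 3.16% in either direction. The Mcm7 probe set 1416030_a_at read 3261, 2722.8, 2489.3, 2484.8 and 2491.4 in hypo, all above the hypo+ arrays, and fell by 0.37 (adjusted p = 0.0236). A dim probe set of E2f1, a transcription factor of S phase genes, read 82.1, 67.4, 83.9, 76.7 and 76.6 in hypo and 29.6, 64.3, 51.1, 37.3 and 61.3 in hypo+, all below hypo, a change of −0.46 with adjusted p = 0.038, while its brightest probe set had −0.03. E2f1 and Cenpf are named after their values were seen. The count was 0 without hypo+ replicate 4, and without hypo replicate 1 the only call was a rise of Ccnd1. When the arrays of Y-linked signal were left out, E2f1 no longer passed and 3 probe sets, of Mcm7, Rrm1 and Kif11, did. The count was 1 without hypo replicate 3 or 5 or hypo+ replicate 2, 3 or 5. It was 3 without control replicate 4 or hypo+ replicate 1, and 4 without control replicate 1 or 2. Calls over all genes fell from 283 to 85 without hypo+ replicate 4 and to 132 without hypo replicate 1. The authors' deposited table lists 4 lower, of Mcm7, Rrm1, Kif11 and E2f1, and 1 higher, of the kinetochore gene Cenpf (signed fold 1.69), against 1.8% of all probe sets lower, 3.04% higher and 4.84% in either direction.

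The response to hormone with goitrogen, hypo+ minus hypo, was also set against that without it, hyper minus control. The hormone dose differed 4-fold between them, so they differ in dose as well as in goitrogen. All 18 S phase members, 16 of 17 mitosis members and 4 of 5 G1 members had a negative difference, with medians of −0.18, −0.22 and −0.20 against −0.02 for all genes. None of the 40 passed, against 0.0111% of all genes, and 2, Tyms and Fen1, had an unadjusted p under 0.05, against 7.79%. The split of 2 positive and 38 negative was 8 and 32 without control replicate 2 and 3 and 37 with the arrays of Y-linked signal left out. Of all 45037 probe sets, 24189 had a negative difference.

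The widest differences were in Ccne2 and Ung. Ccne2 read 369.3, 82.8, 129.1, 218.8 and 257.2 in control, 264.3, 214.2, 271.8, 167 and 262.2 in hypo, 260.2, 138.7, 191.7, 246.2 and 123 in hypo+ and 296.4, 265.5, 209.2 and 246.4 in hyper, a difference of −0.65 ± 0.38 (SE) with adjusted p = 0.729. Control replicates 1 and 2 were the highest and lowest of all 19 arrays. Ung had −0.57 ± 0.31 (SE) (adjusted p = 0.7), Tyms −0.40 ± 0.19 (SE) (adjusted p = 0.625; −0.04 with the probe set that carries its symbol alone) and Fen1 −0.25 ± 0.11 (SE) (adjusted p = 0.617). Of the mitosis members, Kif20a had −0.39, Bub1 −0.33 and Aurkb, a kinase of the chromosomal passenger complex, −0.28. Ccnd1 had 0.27 and Mki67 0.09, both against the direction of the rest, and Pcna and Top2a had −0.12 and −0.00 (limma adjusted p = 0.881 and 0.999).

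The S phase and mitosis lists had medians close to each other in each comparison. The median of the S phase list minus that of the mitosis list was 0.01 in hypo against control, 0.05 in hypo+ against control, 0.02 in hyper against control, 0.05 in hypo+ against hypo and 0.04 for the difference of the hormone responses. No test was made of these differences between lists. On single arrays, the group means of the S phase mean minus the mitosis mean were −0.03 ± 0.09 (SD, n = 5) in control, 0.01 ± 0.08 (SD, n = 5) in hypo, 0.01 ± 0.07 (SD, n = 5) in hypo+ and 0.00 ± 0.04 (SD, n = 4) in hyper.

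The arrays themselves varied more than the groups. As the mean log2 deviation of the 18 S phase genes from their 19-array mean, the control arrays stood at 0.30, −0.19, −0.16, 0.13 and −0.03, hypo at 0.25, −0.05, −0.01, −0.17 and −0.08, hypo+ at 0.02, −0.01, −0.05, −0.22 and −0.25 and hyper at 0.16, 0.05, 0.13 and 0.19. The 17 mitosis genes stood at 0.48, −0.22, −0.12, 0.09 and −0.02 in control, 0.15, −0.08, 0.02, −0.24 and 0.01 in hypo, 0.01, 0.07, −0.02, −0.33 and −0.31 in hypo+ and 0.20, −0.01, 0.11 and 0.21 in hyper. Control replicate 1 was the highest array on both lists, hypo+ replicates 4 and 5 were the lowest, and the controls alone spanned most of the range. The 5 control arrays spanned 0.49 on the S phase list, more than the difference between any 2 group means.

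**Figure D4:**
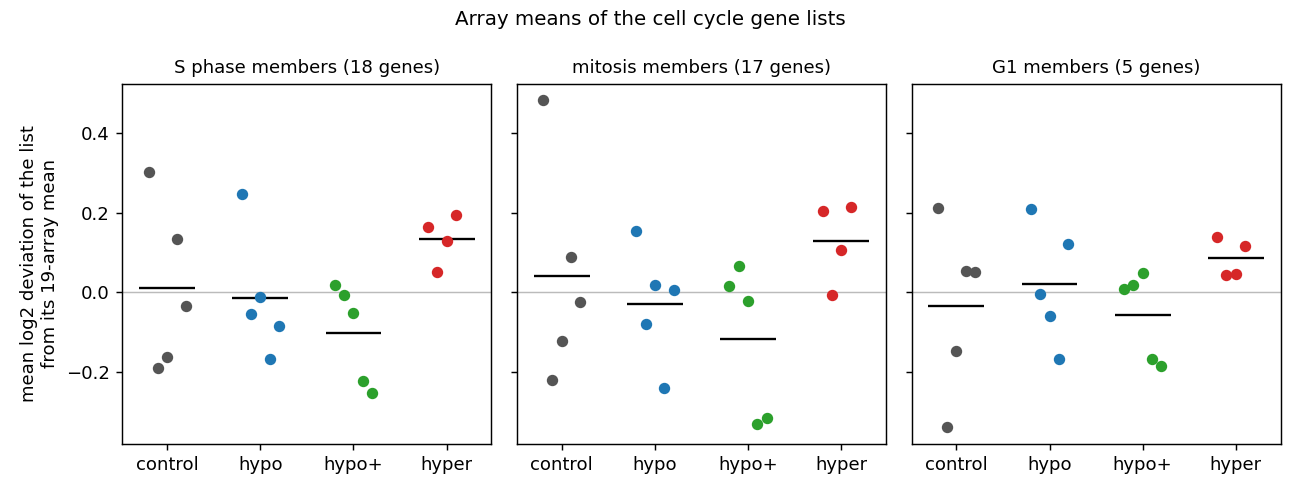
Mean log2 deviation of the S phase, mitosis and G1 lists on each array by group, with the group mean as a bar. Hyper arrays lie at or above −0.01 on all 3 lists, hypo+ replicates 4 and 5 are the lowest on the first 2, and the control arrays span 0.49 on the S phase list and 0.70 on the mitosis list.

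Across the 19 arrays the S phase mean and the mitosis mean varied together, with a Pearson r of 0.94 and a Spearman rho of 0.95. Without the 2 arrays farthest from the median of the S phase mean r was 0.95, and with group means removed it was 0.94. The arrays share their scaling, and the array median had r = 0.51 with the S phase mean and 0.43 with the mitosis mean. These are descriptions of 19 arrays in 4 groups. Single members were correlated with each other by a median r of 0.64 within S phase, 0.71 within mitosis and 0.66 between the lists, but by 0.25 among the 5 G1 members. Ccnd1 had r = 0.12 with the S phase mean and 0.08 with the mitosis mean, the lowest of all members, and Fen1 had 0.37 and 0.27, the next lowest. Mcm3, a helicase subunit, Birc5 and Mcm7 had 0.96, 0.94 and 0.93 with the S phase mean. For each single member, its own values were left out of the list mean it was set against.

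**Figure D5:**
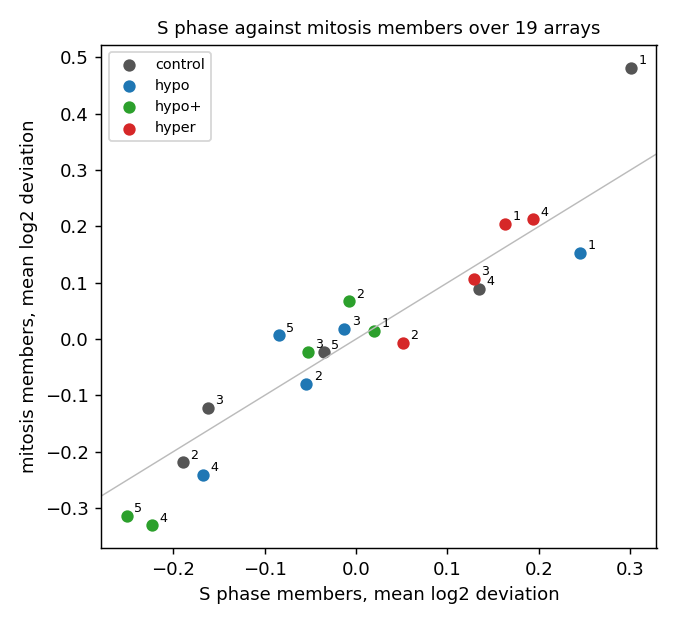
Mean log2 deviation of the 18 S phase genes (x) and of the 17 mitosis genes (y) on each of 19 arrays, coloured by group and numbered by replicate, with the line of equality in grey. The arrays lie along the line (r = 0.94), from hypo+ replicates 4 and 5 at the lower left to control replicate 1 at the upper right.

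Among the 17927 other genes, those that followed the S phase mean most closely were Cdca5, which holds sister chromatids together (r = 0.95), the condensin subunit Smc2 (0.94) and Haus6 of the spindle-building augmin complex (0.92). Cdca5 (0.95), the kinetochore gene Nuf2 (0.92) and Anln, a protein of the cleavage furrow (0.92), were closest to the mitosis mean. The mean of 12 radial glia markers had r = 0.88 with the S phase mean and 0.87 with the mitosis mean, that of 6 intermediate progenitor markers 0.72 with both, and that of 13 neuronal markers −0.22 and −0.20. The neuronal values were not stable. They were 0.19 and 0.07 without the 2 arrays farthest from the median of the list mean, and −0.46 and −0.41 with group means removed. The mean of the 15 CDK inhibitors and genes of cell cycle exit had 0.81 and 0.84. Radial glia markers spanned −0.24 to 0.29 in control, −0.12 to 0.17 in hypo, −0.17 to 0.07 in hypo+ and −0.02 to 0.21 in hyper, and intermediate progenitor markers −0.26 to 0.44, −0.34 to 0.35, −0.30 to 0.10 and −0.02 to 0.24. Neither marker list had a gene past the threshold in any comparison, but 4 of 6 intermediate progenitor markers were negative both in hypo+ against control (median −0.24) and in hypo+ against hypo (median −0.32). The 6 choroid plexus markers spanned −1.20 to 0.57 among the control arrays alone. The 6 meninges markers stood at 1.42 on hyper replicate 1, against at most 0.66 on any other array. Without hyper replicate 1, the split of members in hyper against control was 32 positive and 8 negative. The part of these cell types in the member changes was not tested.

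The wider pathway was read from lists of other genes. Of 49 other replication genes, 36 had a negative change in hypo+ against control and 38 a positive one in hyper against control, with medians of −0.12 and 0.12. Of 59 other mitosis genes, 45 were negative in hypo+ against control (median −0.10) and 55 positive in hyper against control (median 0.13). The medians of all genes were −0.02 and 0.01, and median centring of the arrays moved them to −0.12 and −0.09. Array means of these 2 lists followed those of the S phase and mitosis members, each with r = 0.97, so they do not stand apart from the members. Of the 59 mitosis genes 0 passed in any comparison, and of the 49 replication genes 1 did, in hypo+ against control, where 0.551% of all genes passed. This gene, Orc3, a subunit of the origin recognition complex, fell from 817.1 ± 63.3 (SD, n = 5) to 650.1 ± 35.4 (SD, n = 5), a change of −0.31 ± 0.06 (SE) with adjusted p = 0.0387. It passed in 16 of 32 alternatives, and without control replicate 1, 3, 4 or 5 or hypo+ replicate 2, 3, 4 or 5 it did not.

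Of 24 G1 and S entry regulators, 19 were positive in hyper against control (median 0.22), 14 in hypo+ against control (median 0.04) and 14 in hypo+ against hypo (median 0.05), and 0 passed in any comparison. Of 15 CDK inhibitors and genes of cell cycle exit, 0 passed, and their medians lay between −0.08 and 0.05 in the 5 comparisons. Of the lists of cell type markers only that of the ganglionic eminences had calls. All 13 had a positive change in hypo+ against hypo (median 0.40), and Dlx2, Ebf1 and Six3, transcription factor genes of the ventral forebrain, rose by 0.76, 0.40 and 0.54 (limma adjusted p = 0.0158, 0.0454 and 0.0296), and passed in 31, 16 and 22 of 32 alternatives. When the arrays of Y-linked signal were left out, Dlx2 and Six3 passed and Ebf1 did not (0.42, limma adjusted p = 0.0665). In hypo against control 13 of 13 were negative (median −0.19), and both comparisons share the hypo arrays. The array mean of this list had r = −0.02 with both the S phase and the mitosis mean, and its part in the member changes was not tested beyond these values.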

How the data were processed

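Fetal cortex RNA of 19 arrays was analysed. The labels' protocols name an Affymetrix rat design, whereas the deposited probe sets and symbols are of mouse. The values are linear intensities that the authors summarised and normalized before they deposited them. RMA and MAS5 are both named in the submitters' processing notes, without saying which of them these values come from. Signed fold changes (a score in which falls are below −1), adjusted permutation p-values and present calls were deposited by the authors in another table, per the file headers.

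Each gene took the probe set of highest mean over all arrays, with current names from RefSeq (GRCm38.p6, names only). A member took any probe set that carried its symbol, also one with several symbols (Mcm3, Tyms). Values were log2(intensity + 32), which understates changes of dim genes, and the deposited intensities were not scaled again. All 19 arrays entered 1 group-means fit in limma 3.58.1 (R 4.3.3, lmFit and eBayes, 15 residual degrees of freedom), with two-sided p-values adjusted over all 17967 genes or all 45037 probe sets. The fit was run on simulated data with independent noise for each gene and planted changes larger than those of most members. This does not describe how the fit performs on genes that vary together, as the members did. The number of arrays limits the precision.

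Members and lists were chosen with earlier results of these data known. The members named with values were Ccnd1, Mki67, Pcna, Top2a and, per comparison, the 3 S phase, 3 mitosis and 1 G1 members of largest change, and list genes past the threshold. Alternatives changed the pseudocount, scaling, probe set rule, filter, arrays, block, weights and prior. The alternatives with single-gene symbols alone and on single probe sets were added after seeing the data.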

Additional observations from a re-analysis of the deposited data

Results flagged for a closer look

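In all, 10 member values stood apart from the other arrays of their group by Dixon's criterion at the 95% level, out of 160 sets of 1 member and 1 group that were examined. Chance alone marks about 5% of such groups. Hypo replicate 1 accounted for 4 of them. Cdt1 read 1421.7 on this array against 775 to 880.5 on the other hypo arrays, Aurka, a kinase of spindle poles, read 820.4 against 522.3 to 586.8, Rrm1 at its brightest probe set 2323 against 1750.2 to 1887.8, and Fen1 2147.7 against 1683.8 to 1744. Control replicate 1 was high in Birc5, with 1217.1 against 662.2 to 790.4, and in Cdk1, the kinase that starts mitosis, with 1549.8 against 1090.3 to 1203.5. Control replicate 4 was high in Fen1, with 1755.7 against 1586.6 to 1602. Hyper replicate 4, 1 of the 2 arrays with Y-linked signal, was high in Pcna, with 9017.5 against 7529.1 to 7580.7. Hyper replicate 2 was low in Top2a, with 2103.8 against 2647.7 to 2708.3, and in Bub1b, with 643.1 against 752.5 to 756.2. The cause of these values was not tested.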

How the results depend on the processing

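Each comparison was repeated under 33 alternatives, or 32 for the difference of the hormone responses, 19 of which left out 1 array. The number of member genes past the threshold was 0 throughout, except in hypo+ against control, where it was 5 with each probe set on its own and 1 (Cdc45) with array weights, and in hypo+ against hypo, where it was 2 with each probe set on its own. Leaving out 1 array, that number was 0 to 1 in hypo+ against control, the 1 being Cdc45 without control replicate 2, and 0 to 0 elsewhere. Of single probe sets, 11 passed in hypo+ against control with each array centred on its median, and in hypo+ against hypo 4 passed with quantile normalization, 5 with centring and 6 with array weights, against 5 and 2. Leaving out 1 array gave 0 to 7 and 0 to 4. The list medians moved by less than the spread between arrays (0.15 for S phase, 0.19 for mitosis) under every alternative. In the comparisons of 2 groups that spread was larger than the medians themselves, so this rule cannot show that they held. In hypo against control both medians turned to 0.06 without control replicate 1. In hyper against control they were 0.01 and −0.01 after median centring. Leaving out 1 array, the S phase median ranged over −0.09 to 0.06 in hypo against control, −0.16 to −0.06 in hypo+ against control, 0.05 to 0.20 in hyper against control, −0.14 to −0.02 in hypo+ against hypo and −0.25 to −0.12 for the difference of the hormone responses, and the mitosis median over −0.13 to 0.06, −0.23 to −0.05, 0.01 to 0.20, −0.17 to −0.06 and −0.30 to −0.15. Of 3498 values of single named members, 3482 kept their direction or stayed within 1 SE, 14 did not, and 2 (Cdc45) passed.

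Of 27 same-numbered pairs of arrays from different groups, 7 had deviations from the group means correlated over 0.1. Among them control replicate 1 had 0.21 with hypo, 0.43 with hypo+ and 0.23 with hyper replicate 1. The lowest correlation of a same-numbered pair was −0.36. Pairs of different number also passed 0.1, such as control replicate 2 with hypo+ replicate 5 (0.39). The count therefore cannot say whether replicate numbers mark something shared, and the labels state no pairing. With the replicate number as a block, 0 members passed in every comparison, 4 member probe sets passed in hypo+ against control, where Ccnb1 was lost, and 2 in hypo+ against hypo, where E2f1 was lost and Rrm1 gained, and the counts over all genes were 20 and 192 in place of 99 and 283. The unknown choice between RMA and MAS5 limits what can be said of small shifts shared by many genes.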
